A study of Mus musculus with 6 samples.

Results

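The genes described here encode the subunits of the mitochondrial respiratory chain and ATP synthase, with cytochrome c and the complex I assembly factors that carry a Nduf name. They were chosen by symbol: rows of the array table with exactly 1 gene symbol that begins with Nduf, Uqcr or Atp5, or is Sdha to Sdhd, Cyc1 or Cycs, or begins with Cox4 to Cox8, without pseudogenes. This gave 84 of the 21506 genes tested: 37 of complex I, 4 of complex II, 8 of complex III, 19 of complex IV, 15 of complex V (ATP synthase) and cytochrome c. Ndufa4 and Ndufa4l2 were counted with complex IV, to which Ndufa4 is now known to belong. A further 7 rows that pair such a symbol with another gene's, and 1 pseudogene row, were left out. RefSeq's gene list (assembly GRCm38.p6) has 98 protein-coding genes with such symbols, of which 14 had no row of their own and were not analysed here.

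RNA from the left ventricle of 3 sickle and 3 control mice was hybridised to 1 array per mouse, and the mice were male and 10 to 14 weeks old. The sickle mice carried the human alpha-globin allele Hbatm1(HBA)Tow and were homozygous for Hbbtm2(HBG1,HBB*)Tow, which encodes human sickle beta-globin. The control mice were homozygous for the same Hba allele and for Hbbtm3(HBG1,HBB)Tow, the non-sickling human counterpart, so both groups carried human globin genes. Both were on a mixed B6;129 background and came from The Jackson Laboratory, and the RNA came from whole ventricular tissue, with every cell type it holds. The sources used here do not say whether mice of a group shared a litter, so p-values measure the spread between these 6 arrays.

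The respiratory chain passes electrons from NADH (complex I) and succinate (complex II) through coenzyme Q, complex III and cytochrome c to oxygen at complex IV, and the proton gradient this builds drives ATP synthesis by complex V. Most subunits are nuclear genes, and a few core subunits of complexes I, III, IV and V are encoded in mitochondrial DNA. Heart muscle draws most of its ATP from this pathway and carries muscle forms of several complex IV subunits. The nuclear genes are known targets of the transcription factors NRF1, GABP, ERR and YY1, which act with the coactivators of the PGC-1 family.

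One array, sickle replicate 3, stood apart from the rest, so the main counts and medians, and each difference that it moved by more than 1.5 times, are also given without it. Defining markers of heart muscle were bright in both groups: the 13 sarcomere genes had means from 9.09 to 13.55 on the log2 scale. Relative to the control mean, the median of the sarcomere list was 0.02, -0.03 and -0.14 in sickle replicates 1, 2 and 3. The median of 9 fibroblast markers was 0.03, 0.13 and 1.52, and that of 8 macrophage markers 0.02, 0.23 and 1.39. Of 8 measured red-cell markers, 7 passed the adjustment over all genes and were higher in sickle. The medians of 6 endothelial and 4 measured adipocyte markers differed by 0.10 and -0.10 (0.05 and -0.09 without sickle replicate 3). Of 5 atrial markers, Sln, Myl7 and Myl4 were highest in control replicate 3, at 8.08, 7.75 and 5.93, against at most 3.36, 4.78 and 5.55 in the other arrays. Bmp10 and Nppa lay within or close to the other control values there, and Nppa was higher in the 3 sickle arrays (0.57 ± 0.17, limma adjusted p = 0.451, and 0.37 without sickle replicate 3). Without control replicate 3 the respiratory chain median given below was -0.19, and 53 genes lay below control without overlap, against 13.8% of all genes. In bulk tissue, fewer cardiomyocytes and less RNA of a gene per cardiomyocyte cannot be told apart.

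Promoters are shown for 1 gene of each complex, the one with the smallest p among those lower in sickle that have a single promoter in the RefSeq table, and for Cox7a2, the widely expressed partner of the muscle gene Cox7a1. Each sequence runs 5′ to 3′ on the gene's strand, from 150 bases before the annotated start to 30 bases after it, on GRCm38.p6. Capitals mark the letters searched: GCATGCGC for NRF1, CCGGAAG for GABP, TCAAGGTCA for ERR and AAGATGGCG for YY1, on both strands. Ndufaf8 (complex I assembly factor) is at chr11:120098784-120098963, plus strand, Sdhb at chr4:140961121-140961300, plus strand, Uqcr11 at chr10:80406792-80406971, minus strand, Cox7a1 at chr7:30184021-30184200, plus strand, Cox7a2 at chr9:79759824-79760003, minus strand and Atp5e at chr2:174464072-174464251, minus strand.
Ndufaf8: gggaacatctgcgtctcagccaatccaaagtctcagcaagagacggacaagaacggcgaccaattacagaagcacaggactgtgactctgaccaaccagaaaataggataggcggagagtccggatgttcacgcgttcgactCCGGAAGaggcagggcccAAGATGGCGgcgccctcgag
Sdhb: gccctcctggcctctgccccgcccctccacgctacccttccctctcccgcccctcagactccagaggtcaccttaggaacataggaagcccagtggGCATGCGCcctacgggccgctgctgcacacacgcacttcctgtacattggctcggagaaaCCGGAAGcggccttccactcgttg
Uqcr11: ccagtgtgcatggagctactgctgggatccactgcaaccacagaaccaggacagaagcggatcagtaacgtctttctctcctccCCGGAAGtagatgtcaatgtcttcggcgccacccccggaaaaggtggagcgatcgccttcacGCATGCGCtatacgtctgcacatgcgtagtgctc
Cox7a1: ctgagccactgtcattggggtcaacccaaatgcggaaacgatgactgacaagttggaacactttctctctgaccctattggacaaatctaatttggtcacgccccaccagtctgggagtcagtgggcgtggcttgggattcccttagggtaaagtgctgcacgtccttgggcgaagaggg
Cox7a2: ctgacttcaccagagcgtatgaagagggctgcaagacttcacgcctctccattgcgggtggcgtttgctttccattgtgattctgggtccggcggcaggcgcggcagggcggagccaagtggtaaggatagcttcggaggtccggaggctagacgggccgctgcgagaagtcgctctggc
Atp5e: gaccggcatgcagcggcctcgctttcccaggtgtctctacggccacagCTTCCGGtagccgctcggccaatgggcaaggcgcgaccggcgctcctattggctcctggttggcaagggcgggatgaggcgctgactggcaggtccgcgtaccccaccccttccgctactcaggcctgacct
Sdhb and Uqcr11 each held 1 NRF1 and 1 GABP match, Ndufaf8 held GABP and YY1 matches, and Atp5e a GABP match in the reverse direction. The windows of Cox7a1 and Cox7a2 held none of these letters. The RefSeq table held promoters for 68 of the 84 genes, 73 windows of 300 bases in all. NRF1 letters were in 12 of the 73 (16.4%), against 2.71% of 32851 promoters of all kinds of gene and 3.52% of 21263 promoters of protein-coding genes. GABP letters were in 18 (24.7%, against 8.86% and 11.6%), YY1 letters in 7 (9.59%, against 1.4% and 1.83%) and ERR letters in 2 (2.74%, against 0.423% and 0.334%). The NRF1 letters can overlap their own reverse complement, and a match describes letters, not binding.

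Across the respiratory chain, transcript levels lay slightly below control in the sickle ventricle. Of the 84 genes, 80 had a lower mean in sickle (95.2%), against 51.6% of all genes tested. The median difference was -0.17 on the log2 scale, or 89.1% of the control level, against -0.01 over all genes. No gene passed an adjusted p of 0.05 (limma, Benjamini-Hochberg over all 21506 genes; 0.181% of all genes passed in either direction and 0.0139% lower), and the smallest adjusted p was 0.293. At an unadjusted p under 0.05, 18 of the 84 were lower (21.4%, against 4.38% of all genes) and 0 were higher (against 4.3%). Without control replicate 1, or without control replicate 2, 3 of the 84 were lower, near the share over all genes (3.26% and 2.91%).

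The 3 sickle values lay below the 3 control values for 37 of the 84 genes (44%), against 8.36% of all genes, and above them for 0 (against 7.61%). Each sickle array was below the control mean for 62 of the 84 genes, which was the case for 22.3% of all genes. The genes lie among bright rows. Over all 6 arrays, of 624 genes with a mean of at least 10, 62.2% were below control, with a median of -0.05. All 41 respiratory chain genes in that range were below control, with a median of -0.16, and 17 had no overlap (41.5%, against 16.8% of the 624). Without sickle replicate 3, 37 of the 41 were below control, with a median of -0.07, against 314 of the 624, with a median of -0.003. Relative to the control mean, the medians over the 624 were 0.003, -0.002 and -0.14 in sickle replicates 1, 2 and 3. At an unadjusted p under 0.05 over all 6 arrays, 7 of the 41 were lower (17.1%, against 6.25% of the 624). Without sickle replicate 3 it was 2 of the 41, against 30 of the 624. Among the 43 dimmer respiratory chain genes, 39 were below control over all 6 arrays, with a median of -0.20. Without sickle replicate 3, 36 of these 43 were below control, with a median of -0.14. Each array was also centred on the median level of the 13 sarcomere genes, which is the level of the middle-ranked gene in that array. This level was higher in sickle, so every difference moved down alike. The median became -0.25 over the 84 genes and -0.09 over all genes. No overlap was then seen for 70 of the 84, against 17.0% of all genes. The sarcomere genes themselves had a median difference of -0.06, with 10 of 13 below control. This setting therefore does not measure the 84 genes against the change of the sarcomere genes.

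**Figure D1:**
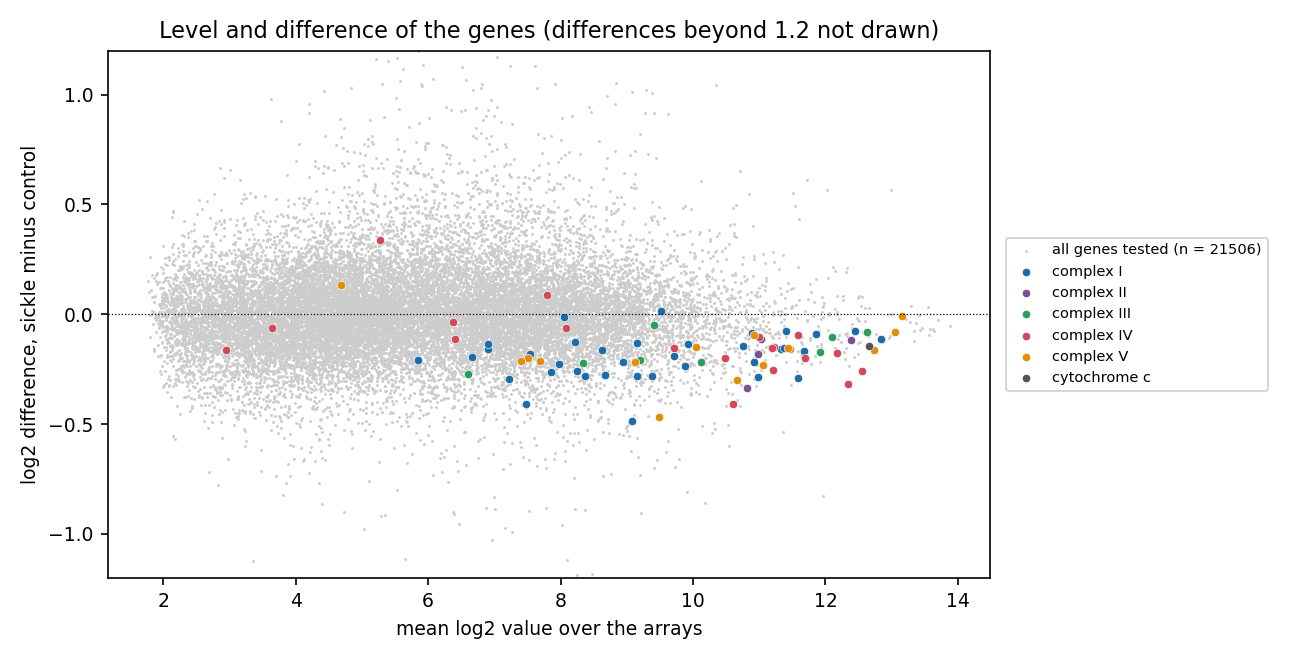
Each point is a gene, with its mean log2 value over the 6 arrays on the x axis and its sickle minus control difference (log2) on the y axis; grey points are the genes tested (those beyond the y axis are not drawn) and coloured points the 84 respiratory chain genes by complex. Of the coloured points, 80 lie below the line of no difference.

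The size of the difference varied between the sickle arrays. Relative to the control mean, the median over the 84 genes was -0.06, -0.13 and -0.33 in sickle replicates 1, 2 and 3, while the control arrays had 0.02, 0.01 and -0.03. Replicate 1 was below the control mean for 69 genes (against 50.5% of all genes), replicate 2 for 72 (against 49.5%) and replicate 3 for 82 (against 54.4%). Replicate 1 was below every control array for 45 genes (53.6%, against 27.1% of all genes) and replicate 2 for 58 (69%, against 27.6%). Replicate 3 was below every control array for 79 genes (94%, against 36.4%). It was the lowest of the 6 arrays for 71 of the 84 genes, against 28.3% of all genes.

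Without sickle replicate 3 the median difference was -0.10, against 0.00 over all genes, and 73 of the 84 genes were lower (86.9%, against 49.8% of all genes). A gene below control without overlap stays so when a sickle array is left out, so the 37 genes were kept by definition. No gene was added to them (44%), while the share over all genes went from 8.36% to 13.4% with 2 sickle arrays. At an unadjusted p under 0.05, 6 genes were lower (7.14%, against 4.37%) and 0 higher (against 4.83%). None passed the adjustment (0.0976% of all genes passed in either direction and 0.0139% lower), and 0 lay above control without overlap (against 13.5%). These 6, all among the 18 above, were Atp5e, Cox7a1, Ndufaf8, Ndufaf4, Ndufa12 and Ndufa13. The difference was less than 50% of its full size without that array for 30 of the 84 genes. The fibroblast and macrophage markers were highest in the same array, and their part in the difference was not tested.

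**Figure D2:**
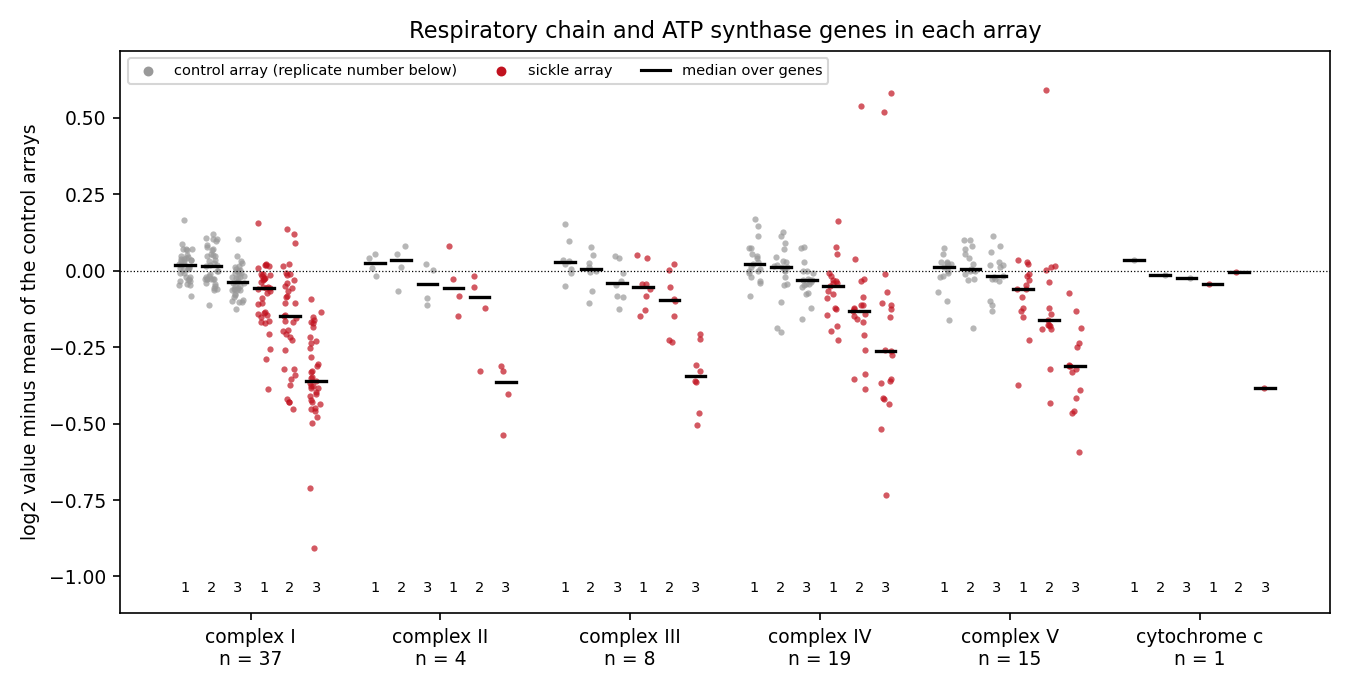
Each point is a gene in 1 array, as its log2 value minus the mean of the 3 control arrays, by complex on the x axis; grey is control, red is sickle, the digits are replicate numbers and the black lines are medians over genes. In complexes I to V the sickle medians lie from -0.05 to -0.06 in replicate 1 and from -0.26 to -0.36 in replicate 3.

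Complex I oxidises NADH and is the largest of the complexes. Of its 37 genes, 36 were below control, with a median of -0.19. No overlap between the groups was seen for 17 (against 8.36% of all genes). The medians in sickle replicates 1, 2 and 3 were -0.06, -0.15 and -0.36, and the median difference without replicate 3 was -0.10. At an unadjusted p under 0.05, 11 were lower (against 4.38% of all genes).

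Within complex I, 6 genes of the catalytic core were measured: Ndufv1, Ndufv2, Ndufs1, Ndufs3, Ndufs7 and Ndufs8. The flavin and iron-sulphur centres lie in subunits of this core, though not in each of them. The 6 genes had differences from -0.22 to -0.07 and a median of -0.12. Of these 6, Ndufs3 was the 1 without overlap, and the median without replicate 3 was -0.02. The 15 accessory subunits of the A, C, S and V series had a median of -0.22 (-0.16 without replicate 3). Of the 15, 10 were without overlap (against 8.36% of all genes). The 8 accessory subunits of the B series, which lie in the membrane arm, had a median of -0.24 (-0.19 without replicate 3), and all 8 were below control. Whether core and accessory genes differ was not tested.

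Ndufa12, an accessory subunit at the NADH end of the complex, had 8.86, 8.82 and 8.78 in control and 8.65, 8.48 and 8.49 in sickle. All sickle values were below control, by -0.28 ± 0.09 (SE; limma adjusted p = 0.504). Ndufa13, also known as GRIM-19, had 11.12, 11.23 and 11.03 in control and 10.87, 10.90 and 10.75 in sickle, a difference of -0.29 ± 0.10 (adjusted p = 0.517). Ndufb6, a membrane arm subunit, had 9.59, 9.51 and 9.46 against 9.37, 9.26 and 9.09, a difference of -0.28 ± 0.11 (adjusted p = 0.543). For each of the 3 genes the groups were apart. Ndufb3, another membrane arm subunit, had a difference of -0.41 ± 0.16 (-0.26 without replicate 3), and its groups overlapped.

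The 8 assembly factors among the Nduf genes, which build the complex and are not part of it, were all below control, with a median of -0.16 and a range from -0.49 to -0.01. Without replicate 3 the median was -0.05 and 6 of 8 were below control. Ndufaf8 had 7.35, 7.39 and 7.37 in control and 7.08, 6.95 and 7.20 in sickle, a difference of -0.30 ± 0.10 (adjusted p = 0.494). Its sickle arrays were all below control, with replicate 3 the highest of them. Ndufaf4 had the largest negative difference of all 84 genes, -0.49 ± 0.18 (adjusted p = 0.549). It had 9.27, 9.26 and 9.42 in control and 8.93, 9.15 and 8.41 in sickle, so the groups were apart. Replicate 3 was the lowest, and without it the difference was -0.27. Ndufa2, an accessory subunit, was the 1 complex I gene with a higher sickle mean, and its 0.01 ± 0.11 (0.09 without replicate 3) lay within the spread between arrays (9.48, 9.61 and 9.45 in control, 9.67, 9.53 and 9.38 in sickle).

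**Figure D3:**
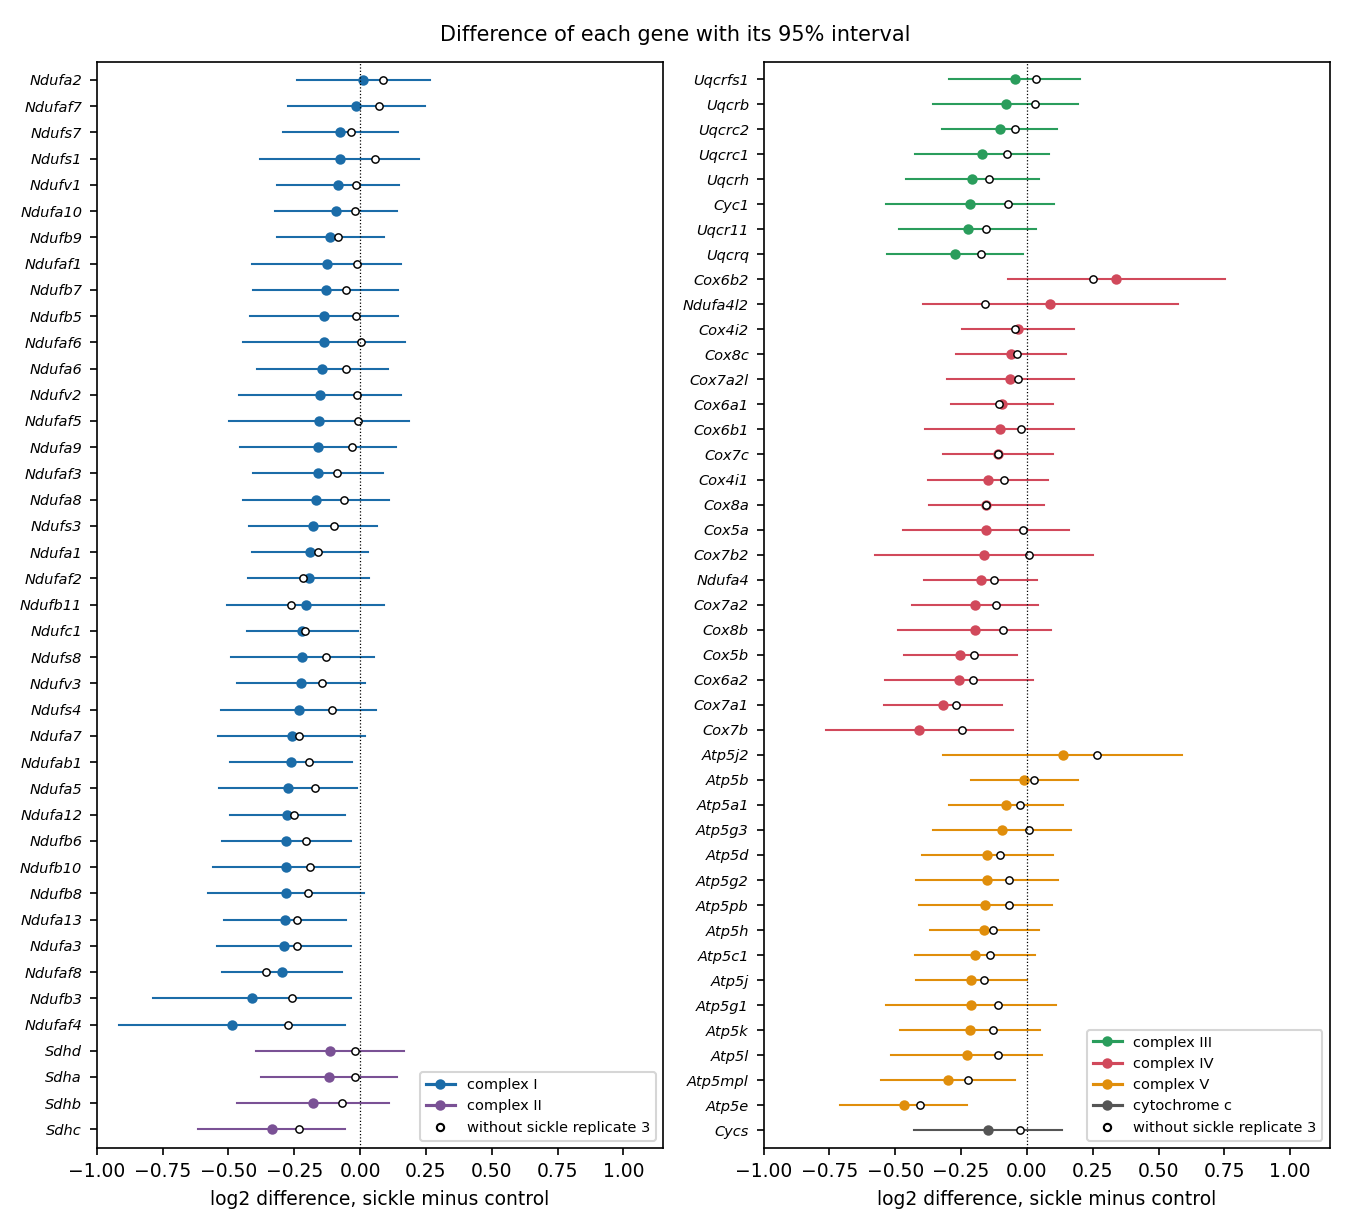
Each filled point is the sickle minus control difference (log2) of 1 gene with its 95% interval from limma, coloured by complex, and each open point the difference without sickle replicate 3. Most intervals reach past 0, and open points lie nearer to 0 than filled ones for most genes.

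Complex II, or succinate dehydrogenase, also belongs to the citric acid cycle, and all of its subunits are nuclear. Its 4 genes were all below control, with a median of -0.15, and -0.04 without sickle replicate 3. Sdhc, a membrane anchor, had 11.03, 10.92 and 11.01 in control and 10.84, 10.66 and 10.45 in sickle. The groups were apart, with a difference of -0.34 ± 0.12 (limma adjusted p = 0.522), and -0.23 without replicate 3.

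The other complex II genes overlapped between the groups. Sdha, the flavoprotein that oxidises succinate, had 12.43, 12.46 and 12.45 in control and 12.42, 12.43 and 12.12 in sickle (-0.12 ± 0.11). Sdhb, the iron-sulphur subunit, had 11.13, 11.13 and 10.96 against 10.99, 11.02 and 10.67 (-0.18 ± 0.12). Sdhd, the other anchor, had 11.09, 11.16 and 10.99 against 11.16, 10.96 and 10.77 (-0.11 ± 0.12). In these 3 genes sickle replicate 3 was below every other array, and without it the differences were -0.02, -0.07 and -0.02.

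Complex III passes electrons from coenzyme Q to cytochrome c. Its 8 genes were all below control, with a median of -0.19 (-0.07 without sickle replicate 3). Of the 8, 4 had no overlap (against 8.36% of all genes). The 4 small subunits had a median of -0.22. Uqcrq, which lies beside cytochrome b, had 6.74, 6.76 and 6.74 in control and 6.62, 6.52 and 6.28 in sickle (-0.27 ± 0.11, limma adjusted p = 0.564), and -0.18 without replicate 3. All sickle values were below the narrow control range.

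Uqcr11 had 8.55, 8.48 and 8.33 in control and 8.37, 8.22 and 8.09 in sickle (-0.22 ± 0.11), with 1 sickle array inside the control range. Uqcrh, the hinge protein, had 9.46, 9.20 and 9.26 against 9.16, 9.16 and 8.98 (-0.21 ± 0.11), without overlap. Of the subunits that carry electrons, Cyc1 (cytochrome c1) had 10.24, 10.31 and 10.15 against 10.19, 10.14 and 9.73 (-0.22 ± 0.14), and Uqcrfs1 (the Rieske iron-sulphur protein) differed by -0.05 ± 0.11. Both overlapped, and without replicate 3 the differences were -0.07 and 0.04. The core proteins Uqcrc1 and Uqcrc2 differed by -0.17 ± 0.11 and -0.10 ± 0.09, both without overlap, and by -0.08 and -0.05 without replicate 3. Cytochrome c itself, Cycs, the mobile carrier to complex IV, had 12.76, 12.71 and 12.70 in control and 12.68, 12.72 and 12.34 in sickle (-0.15 ± 0.12), and -0.03 without replicate 3.

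Complex IV, cytochrome c oxidase, reduces oxygen to water. Of its 19 genes, 17 were below control, with a median of -0.15 (-0.10 without sickle replicate 3). No overlap was seen for 9 (against 8.36% of all genes). Cox7a1, the heart and muscle form of subunit 7a, had 12.51, 12.53 and 12.45 in control and 12.30, 12.16 and 12.08 in sickle. Its groups were apart, with a difference of -0.32 ± 0.10 or 80.2% of control (limma adjusted p = 0.451), and -0.27 without replicate 3. Cox7b, a small membrane subunit, had 10.87, 10.83 and 10.74 against 10.67, 10.46 and 10.08 (-0.41 ± 0.15, adjusted p = 0.543), and -0.25 without replicate 3.

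Cox5b, a subunit on the matrix side, had 11.34, 11.37 and 11.31 in control and 11.16, 11.13 and 10.98 in sickle (-0.25 ± 0.09, adjusted p = 0.534), without overlap. A dimmer second row of Cox5b, with a mean of 5.17, differed by -0.01. Cox5b, Cycs, Atp5h and Atp5g2 each have several rows, and the values given are those of the brightest. The table gives no probe positions, so whether a row also reads processed copies of these genes was not tested, and their values are uncertain in that respect. The 9 widely expressed subunits were all below control, with a median of -0.15, and 7 had no overlap (against 8.36% of all genes). Cox6a1 was the narrowest: 11.63 in each control array and 11.54, 11.51 and 11.56 in sickle (-0.09 ± 0.08), with replicate 3 the highest sickle array.

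The genes of complex IV that were higher in sickle were dim or variable. Cox6b2, known as a testis form, had 5.27, 4.90 and 5.13 in control and 5.07, 5.64 and 5.62 in sickle, the largest positive difference of the 84 genes (0.34 ± 0.18, adjusted p = 0.619). Replicate 1 lay inside the control range. Ndufa4l2, a hypoxia-induced relative of Ndufa4, had 7.79, 7.86 and 7.59 in control and 7.52, 7.66 and 8.33 in sickle, and its difference of 0.09 ± 0.21 was -0.16 without replicate 3. The testis forms Cox7b2 and Cox8c had means of 2.94 and 3.64 and differed by -0.16 and -0.06 (0.01 and -0.04 without replicate 3), with overlap.

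The 3 heart and muscle forms of complex IV subunits, Cox6a2, Cox7a1 and Cox8b, had a median of -0.26, and -0.20 without sickle replicate 3. Their medians in sickle replicates 1, 2 and 3 were -0.04, -0.34 and -0.41. Cox6a2 had 12.70, 12.69 and 12.64 in control and 12.66, 12.29 and 12.31 in sickle (-0.26 ± 0.12, limma adjusted p = 0.596), so replicate 1 lay in the control range and the other sickle arrays below it. Cox8b had 11.83, 11.89 and 11.68 against 11.76, 11.66 and 11.38 (-0.20 ± 0.12, and -0.09 without replicate 3), with overlap.

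Of the widely expressed partners, Cox7a2 had 10.59, 10.63 and 10.53 in control and 10.46, 10.47 and 10.23 in sickle (-0.20 ± 0.10, and -0.12 without replicate 3), without overlap. Cox8a had 9.77, 9.81 and 9.79 against 9.74, 9.53 and 9.64 (-0.15 ± 0.09), also without overlap. Cox4i1, which most tissues use as subunit 4, had 11.26, 11.37 and 11.27 against 11.26, 11.17 and 11.04 (-0.15 ± 0.10, and -0.09 without replicate 3), and its groups touched without crossing. Cox4i2, the form known from lung, had 6.44, 6.37 and 6.36 against 6.27, 6.43 and 6.38 (-0.03 ± 0.09), with overlap. Cox6b1 had 11.19, 10.94 and 11.00 against 11.12, 10.92 and 10.78 (-0.10 ± 0.12, and -0.02 without replicate 3), with overlap. Ndufa4 had 12.26, 12.28 and 12.26 against 12.19, 12.10 and 11.99 (-0.18 ± 0.09), without overlap and with a narrow control range.

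Several complex IV subunits have a partner form, and the balance within a pair was compared as the log2 difference of both rows within each array. Such a value depends on the probes of both rows, so its change between groups is what can be read. For Cox7a1 minus Cox7a2 it was 1.92, 1.89 and 1.92 in control and 1.84, 1.69 and 1.85 in sickle. The groups were apart, with a change of -0.12 (exact two-sided permutation p = 0.1, the smallest that 3 against 3 arrays allow; 0.6 adjusted over the 6 pairs). The change was -0.15 without sickle replicate 3, -0.07 without sickle replicate 2 and -0.07 after a second quantile normalisation, where the exact permutation p was 0.5.

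For Cox6a2, the heart and muscle form, minus Cox6a1, the value was 1.07, 1.06 and 1.02 in control and 1.12, 0.77 and 0.75 in sickle (change -0.16, exact permutation p = 0.4, and -0.10 without replicate 3). Replicate 1 lay above every control array and the other two below, so the groups overlapped. Cox8b minus Cox8a changed by -0.04 (exact permutation p = 0.8) and by 0.07 without replicate 3. Cox4i2 minus Cox4i1 changed by 0.11 (exact permutation p = 0.3), Cox6b2 minus Cox6b1 by 0.44 (exact permutation p = 0.4) and Ndufa4l2 minus Ndufa4 by 0.26 (exact permutation p = 0.6). Without replicate 3 these changes were 0.05, 0.28 and -0.03. The adjusted p lay between 0.6 and 0.8, so no change of balance passed, and none could with this number of arrays.

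**Figure D4:**
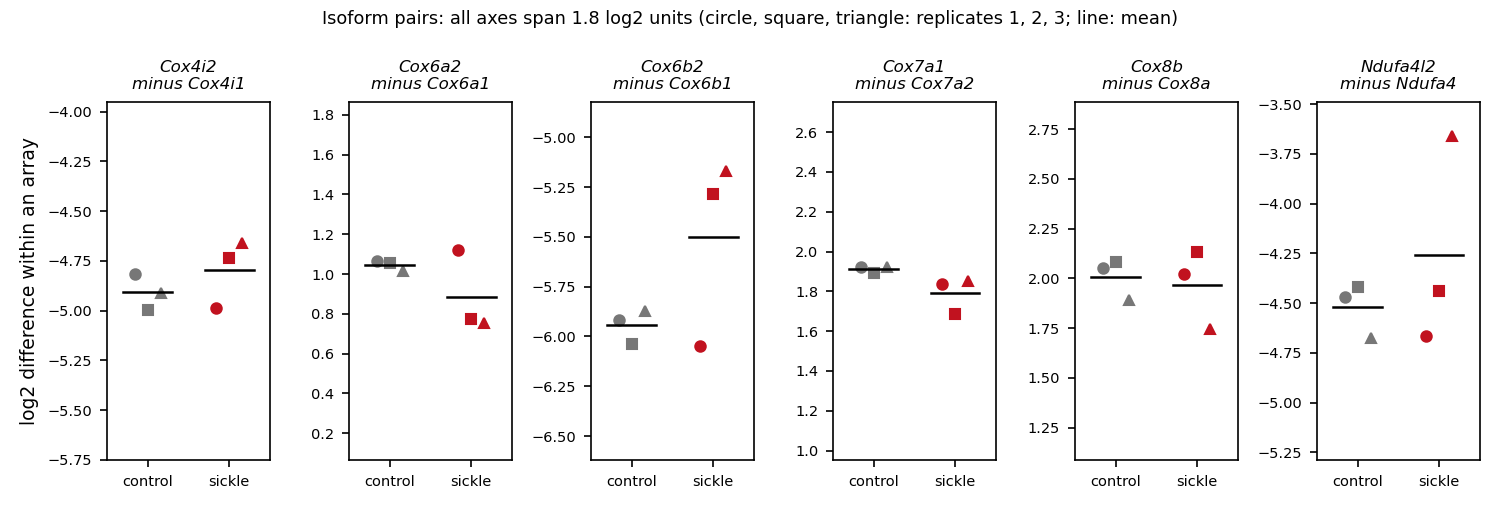
Each panel shows, for 1 pair, the log2 value of the first gene minus that of the second within each array, for 3 control (grey) and 3 sickle (red) arrays, with lines at the means; every axis spans the same number of log2 units. Of the 6 pairs, Cox7a1 minus Cox7a2 is the one whose groups do not overlap.

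Complex V makes ATP. Of its 15 genes, 14 were below control, with a median of -0.16 (-0.11 without sickle replicate 3). No overlap was seen for 6 (against 8.36% of all genes). Atp5e, the epsilon subunit of the central stalk, had the smallest p of the 84 genes. It had 9.77, 9.77 and 9.60 in control and 9.34, 9.28 and 9.12 in sickle, and every sickle array was below every control array. The difference was -0.47 ± 0.10, or 72.3% of control (95% interval -0.71 to -0.23; limma adjusted p = 0.293), and -0.41 without replicate 3.

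In the catalytic head the large subunits had small differences. Atp5b, the beta subunit that carries the catalytic sites, differed by -0.01 ± 0.09 and Atp5a1, the alpha subunit, by -0.08 ± 0.09, both with overlap (0.03 and -0.03 without replicate 3). Their means of 13.15 and 13.06 were near the top of the array's range, where the highest mean of any gene was 13.88. Atp5c1, the gamma subunit, had 7.54, 7.60 and 7.69 in control and 7.46, 7.47 and 7.30 in sickle (-0.20 ± 0.10), without overlap.

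The 3 genes for the c ring, Atp5g1, Atp5g2 and Atp5g3, encode the same mature protein and differed by -0.21, -0.15 and -0.10, all with overlap, and by -0.11, -0.07 and 0.01 without replicate 3. In the peripheral stalk, Atp5j had 7.77, 7.79 and 7.81 in control and 7.66, 7.60 and 7.48 in sickle (-0.21 ± 0.09), without overlap, and Atp5h and Atp5pb differed by -0.16 each (-0.13 and -0.07 without replicate 3). Of the small membrane subunits, Atp5mpl had 10.84, 10.82 and 10.80 against 10.70, 10.50 and 10.36 (-0.30 ± 0.11, adjusted p = 0.528), without overlap. Atp5j2 was the 1 complex V gene with a higher sickle mean. It was dim, with 4.46, 4.72 and 4.68 in control and 4.56, 5.21 and 4.49 in sickle, and its 0.14 ± 0.20 was -0.09 without replicate 2 and 0.27 without replicate 3.

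Genes that serve the chain from outside it were compared in the same way, from lists of pathway members. Of 13 mitochondrially encoded subunits, 8 were measured and all 8 were below control, with a median of -0.07. No overlap was seen for 6, against 8.36% of all genes and 16.8% of genes with a mean of at least 10. The 8 subunits had means of 13.34 to 13.88, at the top of the array's scale. ND2 differed by -0.12 ± 0.09 and ND1, both of complex I, by -0.09 ± 0.09 (-0.08 and -0.06 without sickle replicate 3). Relative to control, the median of the 8 was -0.04, -0.06 and -0.11 in sickle replicates 1, 2 and 3. No gene of these 8, or of the assembly, coenzyme Q, biogenesis, tricarboxylic acid cycle, inner membrane, ATP export and uncoupling lists, passed the adjustment over all genes.

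All 27 measured assembly factors of complexes II to V were below control, with a median of -0.17 (-0.08 without sickle replicate 3). Of the 27, 4 had no overlap (against 8.36% of all genes). Lyrm7, which matures the Rieske protein, differed by -0.83 ± 0.34 and Tmem70, of complex V assembly, by -0.28 ± 0.12. Without replicate 3 these were -0.47 and -0.16, and the groups of Lyrm7 overlapped. Of 7 other complex I assembly factors, 6 were below control, with a median of -0.14 (-0.06 without replicate 3). Tmem126b differed by -0.32 ± 0.15 and Ecsit by -0.21 ± 0.11 (-0.15 and -0.12 without replicate 3). Of 11 genes of coenzyme Q synthesis, 10 were below control, with a median of -0.16 (-0.05 without replicate 3), led by Coq3 (-0.50 ± 0.13) and Pdss2 (-0.35 ± 0.14, and -0.20 without replicate 3).

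Of 21 regulators of mitochondrial biogenesis, 16 were below control, with a median of -0.17 (-0.10 without replicate 3). Of the 21, 6 had no overlap (against 8.36% of all genes). Tfb1m, a methyltransferase of mitochondrial ribosomal RNA, differed by -0.47 ± 0.16, and Ssbp1, which binds single-stranded mitochondrial DNA, by -0.33 ± 0.12. All 13 measured genes of the tricarboxylic acid cycle were below control, with a median of -0.12, but -0.01 without replicate 3, and Idh3g and Idh3a differed by -0.16 ± 0.09 and -0.21 ± 0.13 (-0.14 and -0.08 without replicate 3). Genes of inner membrane structure had a median of -0.14 (8 of 11 below control), and -0.07 (6 of 11) without replicate 3. Apoo differed by -0.30 ± 0.12 and Apool by -0.29 ± 0.13, or by -0.19 and -0.16 without replicate 3. Genes of ATP export and the creatine shuttle had a median of -0.07 (8 of 9 below control), and -0.01 without replicate 3. Vdac3 differed by -0.10 ± 0.09 and the dim Ckmt1 by 0.20 ± 0.16 (-0.04 and 0.03 without replicate 3). Of 3 measured inhibitor and uncoupling proteins, Ucp3 differed by -0.51 ± 0.26 and Slc25a27 by 0.12 ± 0.10, and the median was -0.01 (-0.02 without replicate 3).

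In sickle replicates 1 and 2 the lists were not alike. The respiratory chain (-0.06 and -0.13) and the biogenesis regulators (-0.09 and -0.14) lay below every control array's median. The mitochondrially encoded subunits (-0.04 and -0.06) and the assembly factors of complexes II to V (-0.06 and -0.07) did so by less. In replicate 1 the mitochondrially encoded subunits had -0.041, against -0.033 in control replicate 2. The assembly factors there had -0.057, against -0.056 in control replicate 3, which is hardly a difference. The tricarboxylic acid cycle (-0.003 and -0.02) and ATP export (0.005 and -0.01) lay within the range of the control medians. In replicate 3 the respiratory chain had -0.33, the tricarboxylic acid cycle -0.37 and the sarcomere list -0.14. Whether these lists differ from each other was not tested.

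**Figure D5:**
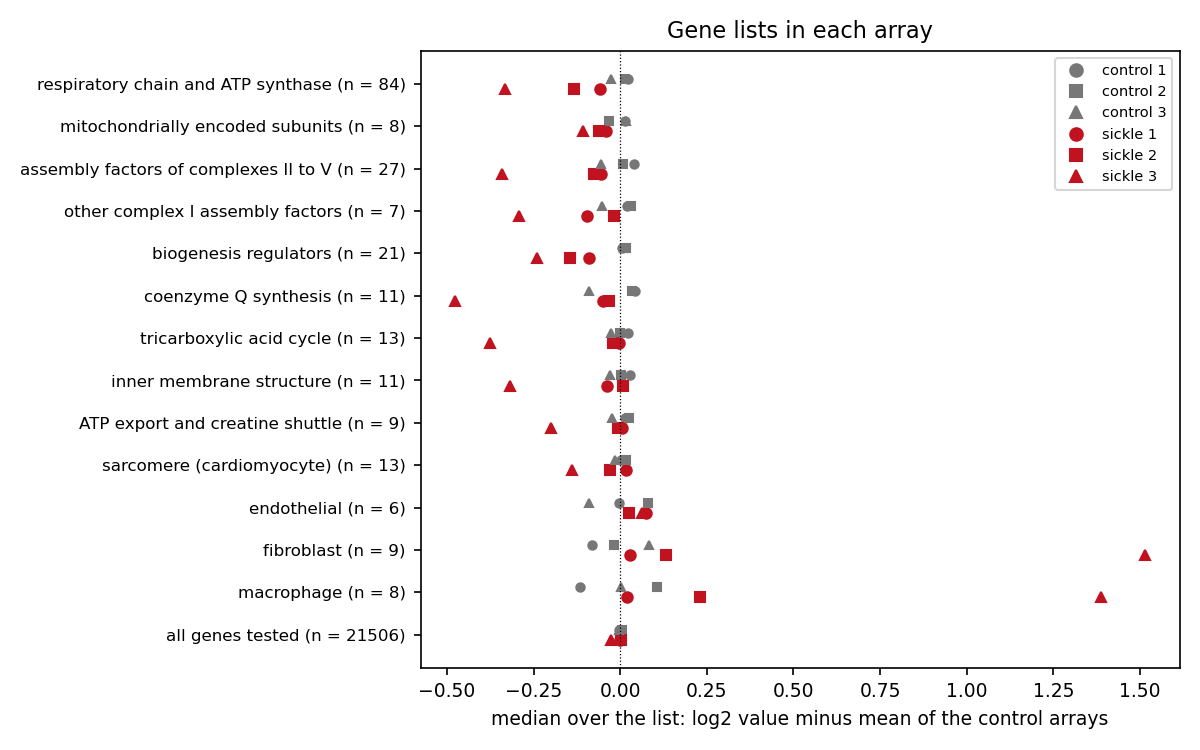
Each symbol is the median over a gene list of the log2 value minus the mean of the 3 control arrays, for 3 control (grey) and 3 sickle (red) arrays, with the number of genes in brackets. Sickle replicate 3 (red triangle) is the lowest array for the 9 mitochondrial lists drawn and the highest for the fibroblast (1.52) and macrophage (1.39) lists.

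Within the respiratory chain, genes were also set out by their promoter matches. The 25 genes with NRF1 or GABP letters had a median of -0.17 and a range from -0.49 to -0.09, and the 43 genes with neither had a median of -0.19 and a range from -0.41 to 0.34. Without sickle replicate 3 the medians were -0.10 and -0.11. No overlap between groups was seen for 13 of the 25 and 18 of the 43. It was seen for 31 of all 68 genes with a promoter and for 8.36% of all genes tested. Whether they differ was not tested.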

How the data were processed

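Ventricular RNA was measured on Affymetrix Mouse Gene 2.0 ST arrays, per the labels. The deposited values are log2 values made by the authors with RMA, per the submitters' processing notes. Its version, its settings and the genome build are not stated in the sources at hand. RMA's quantile step gives every array the same distribution, so a change shared by most genes cannot be seen.

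Of 25293 rows, 22030 had 1 symbol, and the brightest row stood for each of 465 genes with several. Limma 3.58.1 in R 4.3.3 (lmFit and eBayes, two-sided, tested on simulated data) was fitted to 21506 genes with group as its term, with Benjamini-Hochberg adjustment over all of them. Arrays give no read depth, so their number limits precision: the median standard error of the 84 genes was 0.11. Complexes and lists are described by counts and medians with no test, and isoform pairs by exact permutation. The named genes are, in each complex, the 4 lower and 2 higher with the smallest p, the isoform pairs and the extremes, and from each other list the 2 with the smallest p. Others are named to complete a subunit group. The members, lists and tests were chosen with earlier results of these data known. Alternatives changed the variance model, scaling, filter, array weights, rows, replicate block or arrays. Figures used matplotlib 3.10.9.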

Additional observations from a re-analysis of the deposited data

How the results depend on the processing

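None of the 84 genes passed the adjustment in any of 15 alternative fits over all genes. The median difference over the 84 genes stayed below 0 in every alternative. It ran from -0.25, with each array centred on the median level of the sarcomere genes, to -0.10 without sickle replicate 3. The next lowest was -0.22, without sickle replicate 1. The sarcomere centring moves all genes down (median -0.09), because the level of the middle-ranked sarcomere gene was higher in sickle. The median difference of the sarcomere genes was -0.06, so the centring does not follow their change. It gave 70 genes below control without overlap (17.0% of all genes) and 39 lower at an unadjusted p under 0.05 (9.65%). The complex IV median was -0.24. Leaving out 1 array at a time gave medians from -0.22 to -0.10 overall and from -0.23 to -0.074 for complex III. It gave 37 to 57 genes below control without overlap (57 without sickle replicate 1), a count that cannot fall with fewer arrays. The share over all genes was 12.7% to 14.7%. Leaving out 1 array gave 0 to 1 higher at an unadjusted p under 0.05 (3.07% to 5.05% of all genes) and 3 to 24 lower. The last was 3 of the 84 without control replicate 1 (3.26% of all genes) or 2 (2.91%), and 9 without control replicate 3 (3.25%). It was 24 without sickle replicate 1 (4.62%), 8 without sickle replicate 2 (4.57%) and 6 without sickle replicate 3 (4.37%). Over all genes, 39 were called, 4 to 36 with 1 array left out, 0 without shared variance (limma's linear model alone) and 12 with the replicate block. The replicate numbers are not said to pair the mice. Deviations from the group means of same-numbered arrays correlated at 0.11, -0.046 and 0.054, which with 3 arrays per group cannot decide whether mice were paired. The block left 12 of the 84 genes lower at an unadjusted p under 0.05 (4.08% of all genes), against 18 (4.38%). Of 543 values for the 34 named genes, 533 kept their direction and 10 turned it. Ndufa2 turned with median centring (-0.013), sarcomere centring (-0.071), a second quantile normalisation (-0.0043), and without control replicate 1, control replicate 3 or sickle replicate 1 (from -0.060 to 0.088 over the 6 arrays left out in turn). Ndufa4l2 turned with array weights (-0.079) and without sickle replicate 3 (range -0.16 to 0.25), Atp5j2 without sickle replicate 2 (range -0.095 to 0.27) and Cox4i2 without sickle replicate 1 (range -0.070 to 0.010). The balance of Cox8b and Cox8a turned without sickle replicate 3 (range -0.13 to 0.067), as did that of Ndufa4l2 and Ndufa4 (range -0.033 to 0.47). The causes were not tested. Sickle replicate 3 had an array weight of 0.358, against 1.05 to 1.39 for the others. A shift of the size seen here is near the standard error of single genes.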

Other observations

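Cycs had 5 rows in the deposited table, 2 of them with identical values, and they did not show 1 size of difference. The brightest row, which stood for the gene, differed by -0.15, a row with a mean of 10.68 by -0.45, the identical pair by -0.28 and the dimmest row by -0.12. Without sickle replicate 3 the 5 rows lay between -0.06 and -0.03. In the row with the largest difference, sickle replicate 3 had 9.68, against 10.81 to 10.98 in the other arrays. Atp5h had a second, dimmer row with a difference of -0.16, equal to that of the row used, and 0.00 without sickle replicate 3, against -0.13 for the row used.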
